A study of Mus musculus with 2 samples.

Results

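Gata4, Gata5 and Gata6, the 3 GATA factor genes of endodermal tissues, were described in ATAC-seq peak lists from 1 control and 1 Taf4-inactivated culture of mouse ileal enteroids, epithelial organoids grown from crypts. ATAC-seq marks open DNA by the cuts a transposase makes in it, and a peak is a stretch where the inserts exceed the background of its own library. Promoter peaks of a gene were those no farther than 1 kb from any of its annotated start sites, and its distal peaks were the others in the gene body or within 100 kb on either side. This gave 62 of 90445 control peaks (0.0685%) and 58 of 71282 Taf4-inactivated peaks (0.0814%), at 3 of 22367 protein-coding genes. Gata4 (ENSMUSG00000021944.8, chr14:63817759-63890529, minus strand), Gata5 (ENSMUSG00000015627.4, chr2:180059838-180069404, minus strand) and Gata6 (ENSMUSG00000005836.8, chr18:11052508-11085633, plus strand) are placed on mm9, as are all positions given here.

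Both cultures came from mice of 4 months on a mixed C57Bl6/129sv background and received 1 µM 4-hydroxytamoxifen (4-OHT) for 3 days. The control culture, labelled WT, carried Taf4 lox/lox alleles without a recombinase according to the study's methods. The Taf4-inactivated culture, labelled KO, carried the same alleles with VilCreERT2, a tamoxifen-inducible Cre driven by the villin promoter and hence restricted to epithelium. The comparison asks how chromatin accessibility at these genes differed early after loss of Taf4, which encodes a component of TFIID, the complex that helps RNA polymerase II to start. There was 1 library per genotype, so no difference between genotypes could be tested, and each one below describes these 2 libraries.

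GATA4, GATA5 and GATA6 are zinc finger transcription factors that bind the core sequence GATA and act with partners such as HNF4 and CDX2 in the gut epithelium. GATA4 is known for setting the boundary between jejunum and ileum: it is present in the proximal small intestine, where it favours Lct and Fabp1 and holds back ileal genes such as Slc10a2 and Fabp6, and it is largely absent from the ileum. GATA6 is present along the whole intestine and supports crypt proliferation and secretory cells, and GATA5 is found mainly in differentiated epithelium.

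The sequences that the results turn on are given next, 5′ to 3′. The first is the RefSeq promoter of Gata5 (GRCm38.p6, 250 bases before to 50 after the start), shown because it lies under the promoter peak of the 3 genes whose rank by fold was higher after Taf4 inactivation. It matched mm9 exactly at chr2:180069335-180069634 and reads on the minus strand, with GC boxes (GGGCGG) in capitals. Of the 3 genes only Gata5 matched an entry of the RefSeq promoter table.
Gata5 promoter: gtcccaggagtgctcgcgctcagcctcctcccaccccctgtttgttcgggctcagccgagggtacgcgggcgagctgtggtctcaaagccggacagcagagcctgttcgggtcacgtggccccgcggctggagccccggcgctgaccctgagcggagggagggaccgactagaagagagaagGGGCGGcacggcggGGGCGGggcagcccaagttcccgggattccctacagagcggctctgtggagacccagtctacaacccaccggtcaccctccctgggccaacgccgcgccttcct
The other 5 are stretches of 300 bases on the plus strand of mm9 under distal peaks of Gata4 and Gata5, with each GATA word in capitals. A GATA word is A or T, then GATA, then A or G, on either strand. The first pair holds the distal peak of each gene with the highest fold after Taf4 inactivation away from start sites, in the Gata4 intron (chr14:63874859-63875158) and upstream of Gata5 (chr2:180077382-180077681). The stretch was placed where the peak holds most GATA words.
Gata4 intron, highest fold: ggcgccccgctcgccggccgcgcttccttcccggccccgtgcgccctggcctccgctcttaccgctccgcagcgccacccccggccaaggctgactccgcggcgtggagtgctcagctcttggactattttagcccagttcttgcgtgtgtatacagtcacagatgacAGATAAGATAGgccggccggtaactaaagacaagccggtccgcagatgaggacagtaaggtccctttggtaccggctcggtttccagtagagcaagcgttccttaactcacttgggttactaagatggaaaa
Gata5 upstream, highest fold: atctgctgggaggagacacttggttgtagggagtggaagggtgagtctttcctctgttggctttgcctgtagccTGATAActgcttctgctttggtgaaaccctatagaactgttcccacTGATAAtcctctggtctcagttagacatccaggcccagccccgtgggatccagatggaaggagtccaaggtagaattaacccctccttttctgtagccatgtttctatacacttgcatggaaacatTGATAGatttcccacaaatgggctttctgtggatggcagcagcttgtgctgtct
The next pair lies in overlaps of the 2 libraries' peaks (chr14:63927809-63928108 and chr2:180081904-180082203). Each had its gene's largest gain in rank among pairs away from start sites that overlapped by at least 50% of both peaks.
Gata4 upstream, largest gain in rank: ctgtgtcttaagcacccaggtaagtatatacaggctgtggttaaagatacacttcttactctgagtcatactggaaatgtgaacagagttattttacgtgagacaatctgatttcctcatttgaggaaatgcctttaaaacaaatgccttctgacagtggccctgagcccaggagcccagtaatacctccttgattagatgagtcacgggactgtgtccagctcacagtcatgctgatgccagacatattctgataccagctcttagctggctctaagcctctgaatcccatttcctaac
Gata5 upstream, largest gain in rank: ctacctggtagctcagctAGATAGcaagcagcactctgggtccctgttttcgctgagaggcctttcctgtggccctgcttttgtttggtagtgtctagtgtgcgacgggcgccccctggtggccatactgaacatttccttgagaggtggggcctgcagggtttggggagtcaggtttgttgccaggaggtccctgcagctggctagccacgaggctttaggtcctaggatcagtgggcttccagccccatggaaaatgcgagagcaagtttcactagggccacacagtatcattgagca
The last is the distal Gata4 peak with most GATA words in its centre, a control peak of low rank (chr14:63902347-63902646).
Gata4 upstream, most GATA words: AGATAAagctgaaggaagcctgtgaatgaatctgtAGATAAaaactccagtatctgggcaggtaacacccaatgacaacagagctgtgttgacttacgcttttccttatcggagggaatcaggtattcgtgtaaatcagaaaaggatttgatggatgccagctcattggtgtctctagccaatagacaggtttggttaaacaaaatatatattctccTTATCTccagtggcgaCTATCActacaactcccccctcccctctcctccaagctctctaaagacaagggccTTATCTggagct

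The fold enrichment that the authors deposited is relative to the background of its own library, so levels were compared as the percentile of a peak by fold within its own list, where 100 is the strongest. A percentile also depends on how many weak peaks its list holds, and the lists held 90445 control and 71282 Taf4-inactivated peaks. Ranks are therefore not free of depth either. The background level solved from fold and p gave a depth of the Taf4-inactivated library of 60.5% of that of control. Epithelial marker genes (Vil1, Epcam, Cdh1 and Cdx2) had a promoter peak in 4 of 4 cases in both libraries, all at or above percentile 68.8. Ileal markers (Slc10a2, Fabp6, Slc51a, Slc51b) had one in 4 of 4 cases in control and 3 of 4 after inactivation. Mesenchymal markers (Col1a1, Pdgfra, Twist1) had one in 3 of 3 cases in both libraries, at percentiles 10.7 to 87.0 in control and 18.1 to 66.9 after inactivation. GATA4 and GATA6 are also made by gut mesenchyme, and the part of such cells in the values below was not tested. Genes of duodenum and jejunum (Lct, Cybrd1, Onecut2, Pdx1) had one in 3 of 4 cases in control, at percentiles 78.2 to 84.2, against 40.9 to 82.0 for the ileal ones, and in 2 of 4 after inactivation, at 55.5 and 64.5. Of 3 genes of blood and immune cells, Ptprc and Cd3e had no promoter peak in either list, and Spi1 had one in control alone, at percentile 25.3. In bulk material fewer cells of a type and less open DNA per cell cannot be told apart.

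All 3 genes had a promoter peak in both libraries. Across protein-coding genes 68.4% had one in control, 65.6% after Taf4 inactivation and 62.7% in both, so presence alone does not set these genes apart. The control peaks of Gata4 and Gata6 ranked lower after Taf4 inactivation, whereas that of Gata5 ranked higher. An open promoter does not report transcription, and Gata4, described as largely silent in ileum, had the highest rank of the 3 in control enteroids. With 1 library there is no spread against which the order of the 3 could be judged.

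Gata4 has 6 annotated start sites that fall into 3 places, and their peaks did not behave as 1 unit. The main promoter, at the start site of the coding reference transcript (63864085), had a control peak at chr14:63863505-63865484 with a fold of 2.70, a −log10 q of 8.53 and percentile 92.4. After Taf4 inactivation the peak, at chr14:63863950-63865415, had a fold of 2.90, a −log10 q of 7.70 and percentile 73.0, a difference of -19.4 points. The raw folds therefore went the other way from the ranks, and the rank by −log10 p was lower too, at 81.8 against 95.5. Over the 14014 coding genes with a promoter peak in both libraries, the strongest promoter peak of each library was compared. The difference in rank had a median of -2.77 points with quartiles of -10.6 and 2.36. The main Gata4 promoter lay below the lower quartile, but its value is fixed to 1 start site, unlike those of the 14014 genes. The upstream promoter, 26.3 kb before the main one, was at percentile 63.4 in control and 56.9 after inactivation. The start site of a short transcript 31.6 kb inside the gene (63832444) had no control peak, but after inactivation a peak of 277 bp at chr14:63832170-63832446 with a fold of 3.07, a −log10 q of 6.02 and percentile 78.2. It was the highest Gata4 promoter peak in that library by fold, whereas by −log10 q the main promoter was higher. Taking the strongest promoter peak in each library, as for the 14014 genes, gave a difference of -14.2 points, which compares different start sites. Of those genes 18.6% had a lower difference.

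By the strongest promoter peak of each gene and by fold, Gata5 ranked lowest of the 3 in both libraries. In control it spanned chr2:180068858-180069664 with a fold of 1.91, a −log10 q of 2.28 and percentile 23.7. After Taf4 inactivation it spanned chr2:180069087-180069844 with a fold of 2.57, a −log10 q of 4.66 and percentile 58.4. The difference of 34.6 points was above that of 96.3% of the coding genes with a peak in both libraries. Those genes had a median percentile of 88.2 in control, which leaves less room to gain than 23.7 does. Genes of a similar starting rank were not compared, so this place does not set Gata5 apart. Ranked by −log10 p the difference was 9.23 points, from 60.1 to 69.3, and ranked by width it was 0.907 points, so its size rests on the fold. The peaks cover the promoter printed above, which holds 2 GC boxes, the sites of Sp and Klf factors, and no GATA word. On both strands, a GC box was present in 35.7% of 32851 RefSeq promoters and a GATA word in 29.8%. The letters TATAAA, present in 13.6% of promoters, and CCAAT, present in 37.4%, were not found in it. An antisense gene, Gm14318, overlaps the Gata5 promoter peak, and ATAC-seq does not tell the strands apart.

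Gata6 had a promoter peak at chr18:11052037-11053354 in control, with a fold of 2.27, a −log10 q of 6.54 and percentile 78.3. After Taf4 inactivation the peak at chr18:11051583-11053367 had a fold of 2.65, a −log10 q of 8.26 and percentile 63.0. The difference was -15.3 points by fold and -8.71 by −log10 p, and the peak was wider, at 1785 against 1318 bp. Ranked by width the direction turned, at 9.53 points. The divergent non-coding gene 1010001N08Rik starts under the same peak, so the signal cannot be assigned to either gene alone.

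**Figure D1:**
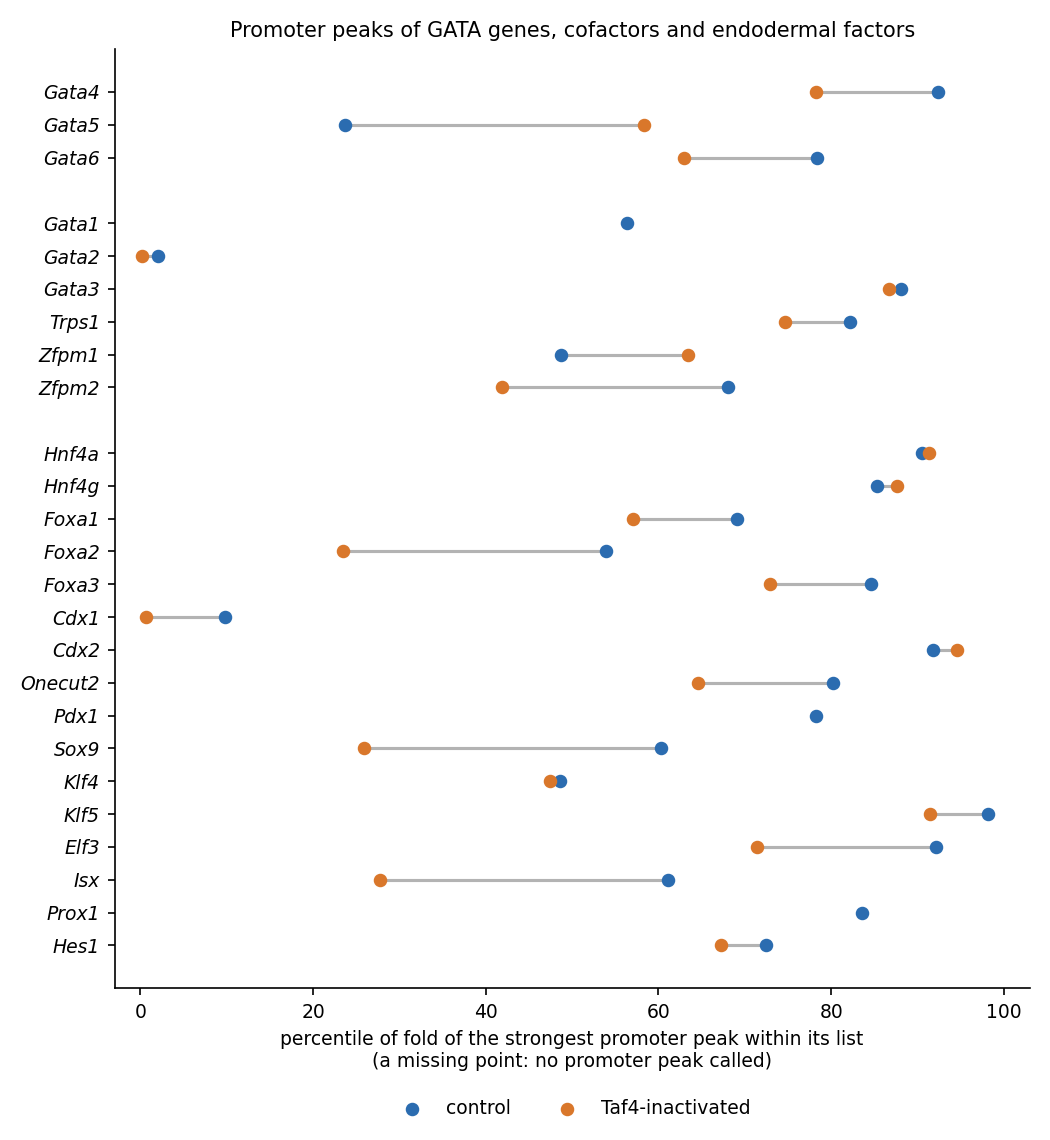
Percentile by fold of the strongest promoter peak of each gene within the control (blue) and Taf4-inactivated (orange) lists, for Gata4, Gata5 and Gata6, for the other GATA genes and cofactors, and for 16 endodermal transcription factors. Gata5 moves from 23.7 to 58.4, whereas Gata4 and Gata6 move left; the Gata4 points are at different start sites, and 1 library stands behind each point.

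Among the other GATA genes and cofactors, 6 of 6 had a promoter peak in control and 5 of 6 after Taf4 inactivation. Gata1, an erythroid factor, was at percentile 56.4 in control and had none after inactivation. Gata2, of blood progenitors, was near the bottom of both lists (2.01 and 0.234), whereas Gata3, of lymphoid and several epithelial tissues, stayed near the top (88.1 and 86.7). Trps1, which encodes a repressor that binds GATA sequences, was at 82.2 and 74.7. Zfpm1 and Zfpm2, which encode the GATA cofactors FOG1 and FOG2, went opposite ways, from 48.7 to 63.4 and from 68.0 to 41.9. Of the 5 with a peak in both libraries 1 ranked higher and 4 ranked lower, against 34.2% higher over all coding genes.

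Of 16 endodermal transcription factors, all had a promoter peak in control and 14 after inactivation, and Pdx1 and Prox1 had none there. Of these 14, 3 ranked higher and 11 lower, with a median difference of -10.4 points. The differences of Gata4 and Gata6 lay below this median but well inside the range of the group, which reached -34.3 points for Sox9. By distance over both percentiles, the gene of this group closest to Gata4 was Elf3, an epithelial ETS factor (92.1 and 71.4, 6.83 points away), followed by Foxa3 and Hnf4g. With the main Gata4 promoter in both libraries Elf3 was 1.64 points away, followed by Foxa3 and Onecut2. Closest to Gata6 was Onecut2, a factor of proximal intestine (80.2 and 64.5, 2.42 points away), followed by Hes1 and Foxa1. Gata5 had no near neighbour in the group, since the closest, Klf4, a factor of differentiated epithelium, was 27.1 points away, with percentiles 48.6 and 47.5. Foxa1 and Foxa2 followed. These distances rest on 2 values per gene.

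The genes whose regional use depends on GATA4 showed no common pattern. Lct, the lactase gene of the jejunum, had no promoter peak in either list. Fabp1, a fatty acid binding protein gene, had none in control and one at percentile 59.6 after Taf4 inactivation. Slc10a2, the ileal bile acid transporter gene, was at 47.8 in control and 57.8 after inactivation, and Fabp6, its intracellular partner in bile acid uptake, was at 40.9 in control and had none after inactivation. Both ileal genes thus had modest peaks in control, and only Slc10a2 had one in both lists.

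The distal peaks of the 3 genes numbered 58 in control and 53 after Taf4 inactivation, while over all peaks the control list was larger by a ratio of 1.27. They covered 44611 and 32005 bp with mean folds of 2.09 and 2.73. Gata4 had 25 and 23, Gata5 22 and 20, and Gata6 11 and 10. Counting every peak within the windows, Gata4 had 9.90 per 100 kb in control and 9.53 after inactivation, above 74.6% and 86.6% of coding genes. Gata5 had 10.98 and 10.02 (81.7% and 89.3%), whereas Gata6 had 5.15 and 4.72, near the middle of coding genes (43.3% and 47.7%). The neighbourhoods differ in gene content, since 9 of the 58 control peaks and 6 of the 53 peaks after inactivation lay at start sites of other genes, and none of these were near Gata6.

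The order of the counts turned with the threshold. At a −log10 q of at least 5, 7 of 58 distal control peaks (12.1%, exact 95% interval 4.99 to 23.3) and 20 of 53 after Taf4 inactivation (37.7%, 24.8 to 52.1) remained. Over all peaks 11.9% and 28.7% remained, and over peaks away from start sites 4.85% and 19.3%. Intervals here and below are Clopper-Pearson intervals that cover counting error only. Neighbouring peaks of 1 gene are not independent of each other.

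Without a partner, that is without 1 bp of overlap with any peak of the other list, were 29 of 58 distal control peaks (50%, 36.6 to 63.4) and 24 of 53 after inactivation (45.3%, 31.6 to 59.6). Leaving out peaks at start sites of other genes, the shares were 53.1% (38.3 to 67.5) and 51.1% (36.1 to 65.9). Over all peaks away from start sites they were 61.5% in control and 48.8% after inactivation, which lie inside the intervals of the 3 genes. The share varied among the genes. Gata5 had the lowest, 8 of 22 in control and 6 of 20 after inactivation, and Gata6 the highest, 8 of 11 and 7 of 10. Gata4 lay between them, with 13 of 25 and 11 of 23.

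**Figure D2:**
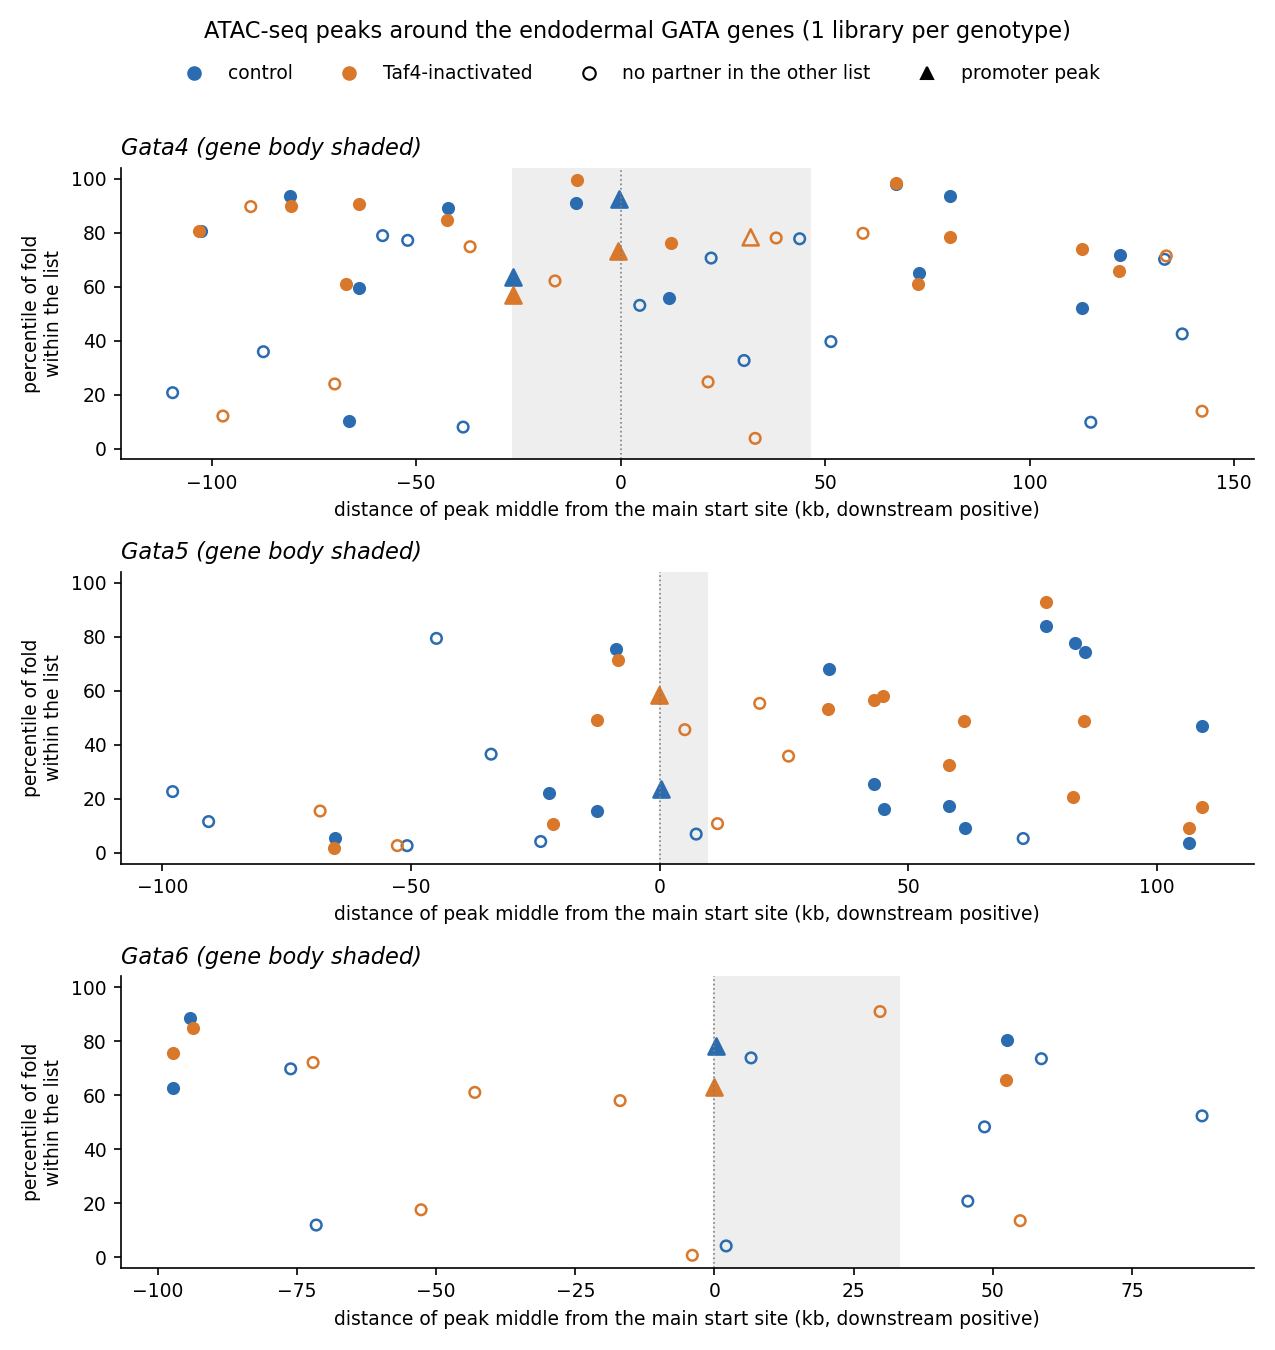
Peaks around Gata4, Gata5 and Gata6 by distance of their middle from the main start site (kb) and percentile by fold within the control (blue) or Taf4-inactivated (orange) list, with promoter peaks as triangles and peaks without a partner as open symbols. The Gata4 intron peak 10.9 kb upstream of the main start site is at 90.9 and 99.3, and the open orange circle inside Gata6 at 90.9 has no control partner.

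The Gata4 window held the strongest distal peaks of the 3 genes, some of them in the neighbouring gene Fdft1. Among the top 10% of a list by fold were 4 of the 58 distal peaks in control, all in the Gata4 window. After inactivation there were 5 of the 53, 3 in the Gata4 window and 1 each in those of Gata5 and Gata6. Over all peaks away from start sites 4.45% and 5.28% were in that class. Those percentages leave out all start site peaks. The counts of the 3 genes include the start site peaks of Fdft1 in both libraries and of Rps21 after inactivation. In control they also include a peak overlapping a coding exon of Fdft1, at 93.4. The highest in control was the start site peak of Fdft1, the squalene synthase gene, at 97.9 in control and 98.3 after inactivation.

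The strongest Gata4 peak after Taf4 inactivation lay in an intron between the upstream and the main promoter. In control it spanned chr14:63874345-63875629, with its middle 10.9 kb before the main start site, a fold of 2.62, a −log10 q of 6.08 and percentile 90.9. After inactivation it spanned chr14:63874422-63875158, with a fold of 5.20, a −log10 q of 23.1 and percentile 99.3. The element was thus among the strongest of its list in both libraries and narrower after inactivation, at 737 against 1285 bp. Its gain of 8.44 points was above 76.3% of all 42491 pairs of peaks between the lists. As printed above, the stretch holds 2 overlapping GATA words beside a GC-rich part.

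Upstream of Gata4 lay several further elements shared by both libraries. The peak at chr14:63944632-63945443, 81.0 kb upstream, was at 93.6 in control and 89.9 after inactivation. The peak at chr14:63905853-63906983, 42.3 kb upstream, was at 89.2 and 84.5. The one 63.9 kb upstream (chr14:63927803-63928116 in control, chr14:63927745-63928200 after inactivation) was at 59.3 and 90.5, with −log10 q of 2.53 and 9.80. Its gain of 31.2 points was above that of 92.5% of all pairs. The stretch printed above held no GATA word, whereas the whole peak after inactivation held 2. A peak overlapping a coding exon of Fdft1 downstream (chr14:63783087-63784048) went from 93.4 to 78.2.

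The highest Gata4 peaks without a partner did not reach the top 10% in either library. After inactivation they were an intergenic peak 90.4 kb upstream (chr14:63954295-63954727, percentile 89.6, −log10 q 8.37) and a peak overlapping a coding exon of Neil2, a DNA glycosylase gene (chr14:63804711-63804996, 79.7). In control they were an intergenic peak 58.2 kb upstream (chr14:63921713-63922853, 78.9) and a peak overlapping a coding exon of Gata4 itself (chr14:63820188-63820479, 77.7). The Gata4 peak with most GATA words in its centre was near the bottom of its list. This control peak, printed above (chr14:63902317-63902889), was at percentile 7.94 with a −log10 q of 1.196. After inactivation a separate peak of 221 bp with 3 words was called close by (chr14:63900789-63901009), at 74.7. The Ctsb start site peak, with 3 words in its centre in both libraries, was at 71.9 in control and 65.9 after inactivation.

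Around Gata5 the strongest peak in both lists was at the start site of a neighbouring gene, and most of those next in rank were away from start sites. The peak of Rps21, a ribosomal protein gene 77.6 kb downstream, was at 84.1 in control and 92.8 after inactivation. In control it was followed by a peak without a partner in an intron of the uncharacterised gene B230312C02Rik, 44.9 kb upstream (chr2:180114178-180114445, 79.4), and by chr2:179985815-179986222, which went from 77.5 to 20.6. This difference of -56.9 points, between peaks that overlapped by 188 bp, was above that of only 1.65% of all pairs. After inactivation the third highest, at the start site of BC066135, was at 58.1, against 16.3 in control. Of the peaks away from other genes the nearest strong one lay 8.80 kb upstream (chr2:180077789-180078614), at 75.6 in control and 71.4 after inactivation. After inactivation this peak began at 180077085 and covered 1535 bp against 826, and the stretch with 3 GATA words printed above lies in the part that was called in that library alone.

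Next to it, 12.7 kb upstream of Gata5, a narrow peak (chr2:180081904-180082204) was at 15.5 in control and 49.0 after inactivation. Its gain of 33.5 points was close to that of the Gata5 promoter. Without a partner after inactivation, the highest Gata5 peaks were an intergenic one 20.1 kb downstream of the start site (chr2:180048943-180049693, 55.3) and one in a Gata5 intron (chr2:180064270-180064476, 45.6). In control, after the B230312C02Rik peak, the next was an intergenic one 33.9 kb upstream (chr2:180103171-180103471, 36.5). Of the unpartnered peaks named around Gata5, the B230312C02Rik peak had the highest rank.

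Gata6 had few distal peaks and shared only 3 of them. The strongest in control lay 94.1 kb upstream (chr18:10957789-10958998) at 88.4, and at 84.8 after inactivation. A second one 97.3 kb upstream went from 62.6 to 75.5, and one 52.5 kb downstream (chr18:11104766-11105177) from 80.5 to 65.4. The strongest after inactivation was a peak of 286 bp in a Gata6 intron (chr18:11082103-11082388), with a fold of 3.76, a −log10 q of 8.23 and percentile 90.9, which had no partner in control. It was the only one of the 53 distal peaks after inactivation that was in the top 10% and without a partner, and no such control peak was found among 58. Over all peaks away from start sites 0.699% after inactivation and 0.267% in control were in that class, so counts this small do not set the gene apart. The next unpartnered peak after inactivation lay 72.1 kb upstream (chr18:10980292-10980558, 72.0). In control the highest unpartnered peaks were one overlapping a coding exon of Gata6 (chr18:11058940-11059220, 73.8) and one 58.7 kb downstream (chr18:11111050-11111376, 73.5).

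Ranks of the distal pairs showed no common direction. Of the 29 pairs overlapping each other best, 14 ranked higher by fold after Taf4 inactivation and 15 lower, with a median of -0.02 points. By −log10 p 14 ranked higher too, with a median of -2.73 points. Over all pairs away from start sites 43% ranked higher by fold, with a median of -2.92 points. Unlike that set, the 29 include pairs at start sites of other genes, so the 2 are not like for like. Those at Fdft1, Rps21, Cables2 and BC066135 ranked higher, and those at Ctsb and Lama5 lower. Gata4 had 6 higher and 6 lower, Gata5 7 and 7, and Gata6 1 and 2. The spread was widest for Gata5, from -56.9 to 41.8 points. For Gata4, the largest value, 50.9 points, came from peaks that overlapped by 165 bp. The Gata4 and Gata6 promoters were lower while their shared distal peaks were split. For Gata5 the promoter was higher while its distal pairs, counted with those at start sites of other genes, were split equally by fold. By −log10 p 6 of the 14 Gata5 pairs ranked higher, with a median of -7.74 points.

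**Figure D3:**
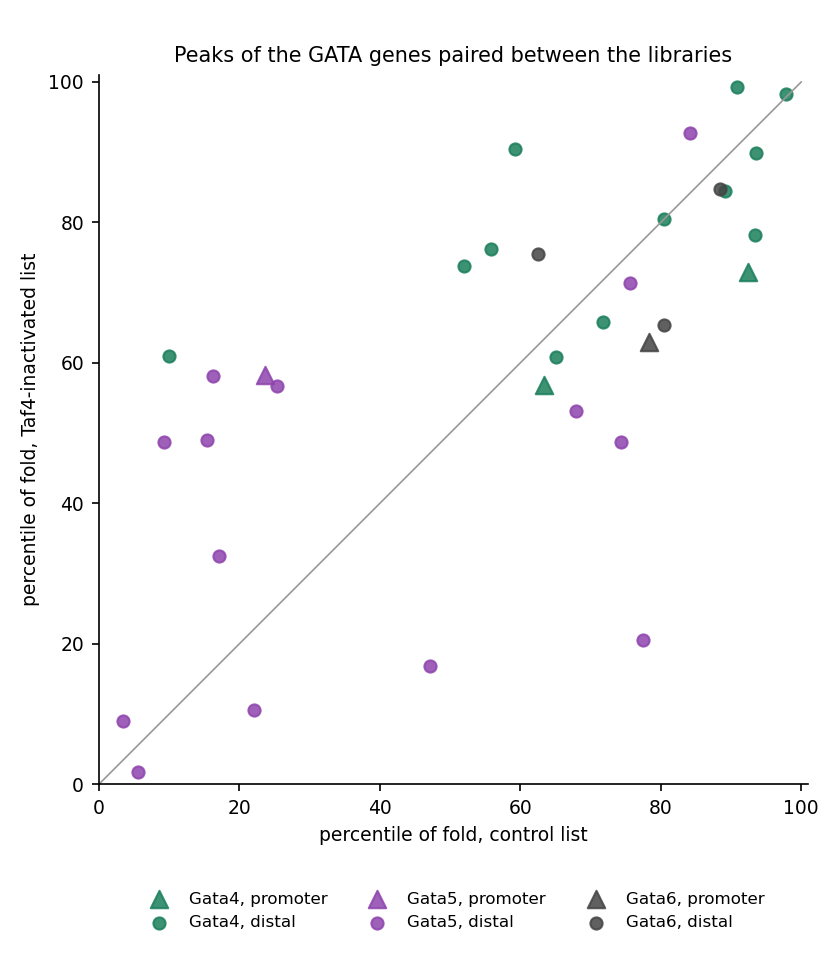
Percentile by fold in the control list (x) and the Taf4-inactivated list (y) of peaks paired between the libraries, with promoter pairs as triangles and distal pairs as circles, and the line of equal rank. Gata4 pairs sit mostly in the upper right, and Gata5 pairs spread from 1.81 to 92.8 on the y axis.

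GATA words were present in the central 300 bp of 22 of 58 distal control peaks (37.9%, 25.5 to 51.6) and 24 of 53 after inactivation (45.3%, 31.6 to 59.6). Over all peaks away from start sites the shares were 33.8% and 38.8%. Both lie inside the intervals of the 3 genes, whose counts include peaks at start sites of other genes. Peaks of the 3 genes with a partner held a word in 13 of 29 cases in either library, and those without one in 9 of 29 in control and 11 of 24 after inactivation. In their central 300 bp none of the 4 promoter peaks in control and none of the 5 after inactivation held one, which at these numbers allows shares of up to 60.2% and 52.2%, and over all start site peaks the shares were 18.1% and 17.6%. Over their whole length 3 of the 4 and 3 of the 5 held at least 1 word. The reversed pattern, with the same base composition, was found in 20.7% and 17.0% of the distal peaks of the 3 genes.

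Over the whole lists, GATA words were most frequent in top 10% peaks without a control partner, in 236 of 376 after inactivation (62.8%, 57.7 to 67.7) against 57 of 189 such peaks in control (30.2%, 23.7 to 37.2). The median GC content of these windows was 46.2% and 55.0%, and the reversed pattern, found in 37.8% and 21.7%, differed in the same direction. The part of base composition in this difference was not tested. The Gata6 intron peak is 1 of these 376 and holds 1 word.

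**Figure D4:**
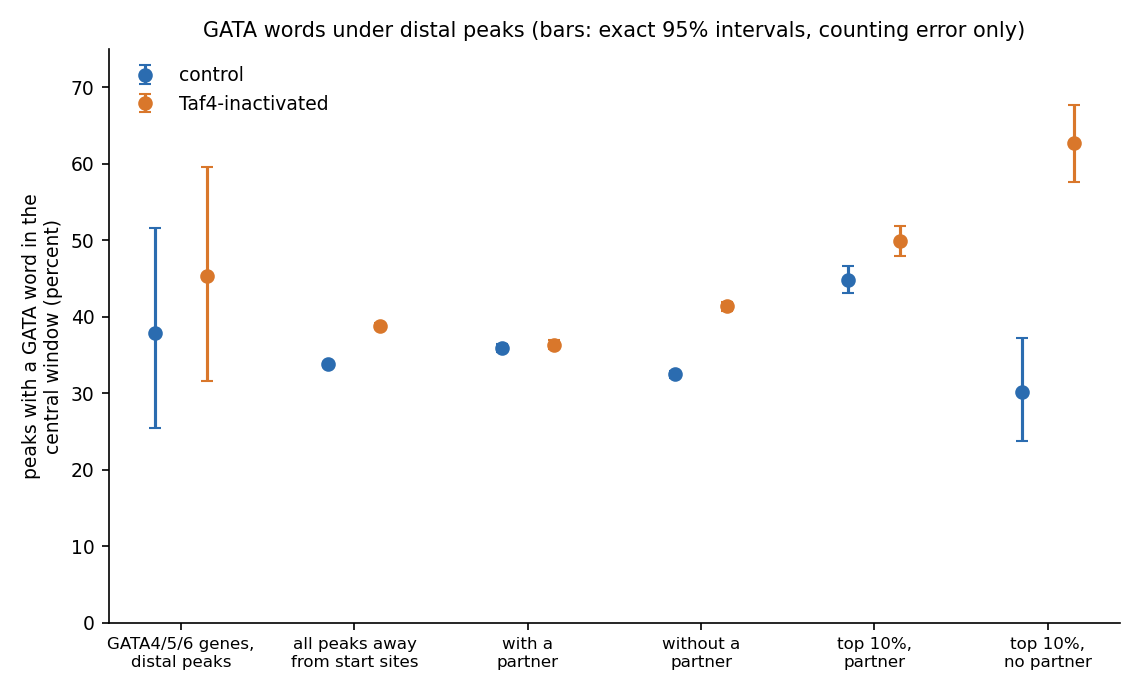
Share of peaks with a GATA word in their central 300 bp (percent, with exact 95% intervals) for the distal peaks of the 3 genes and for classes of all peaks away from start sites, in control (blue) and Taf4-inactivated (orange) lists. The 3 genes are at 37.9% and 45.3% with wide intervals, and the class of top 10% peaks without a partner is at 30.2% and 62.8%.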

How the data were processed

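ATAC-seq was measured in 1 control and 1 Taf4-inactivated enteroid library, grouped by the genotype in the sample labels. Per the labels and the study's methods, the authors mapped reads to mm9 with Bowtie 1.0.0, kept unique hits and called broad peaks per library with MACS2 2.1.1. The deposited score is 10 times the −log10 q, truncated. The deposited fold (a ratio over the library's own background) and the deposited −log10 p and −log10 q are means over a peak. Treatment of duplicate and mitochondrial reads is not given in the sources used here.

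Start sites came from GENCODE vM1 on NCBIM37 (mm9), and Slc51a, Slc51b and Spi1 were found there under older symbols. Pairs are peaks that overlap each other best. Distances run from the middle of a peak to the main start site. A peak's location is the annotated feature that any part of it overlaps, with coding exons placed before UTRs, other exons and introns. Relative depth came from the background level that gives both fold and p, taken low in its distribution (percentile 5) in the 10% of peaks that are narrowest. Values were computed with Python 3.11.15, numpy 2.4.6, pandas 2.3.3, scipy 1.17.1 and pysam 0.24.0, and figures drawn with matplotlib 3.10.9. Scripts were tested on simulated data, and none of 8 steps was off by more than 2%. Read counts per library were not used here, so no p-value between genotypes was computed.

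The 3 genes, the gene lists and the comparisons were chosen with earlier results of these data known. Genes named were the 3, 6 other GATA genes and cofactors, for each of the 3 the 3 closest of 16 endodermal factors, and 4 regional genes. Some factors are not reported here and were left out of the counts and distances of that group. Distal peaks named were, per gene and library, the 3 of highest fold and the 2 of highest fold without a partner, and others, including those whose sequence is shown, were chosen after their values were seen. The targeted gene, Taf4a, had a promoter peak at percentile 74.7 in control and 58.7 after inactivation, which does not report the deleted exons. Alternatives changed distances, q thresholds, overlap, ranking value and motif window.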

Additional observations from a re-analysis of the deposited data

How the results depend on the processing

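No paired analysis was possible because each genotype has 1 library. With 1 library each, peak calls depend on depth, and no setting adds a replicate. Of 110 values recomputed, 51 stayed within their margin, 54 moved and 5 turned in direction. The margin was 1.5 times for counts, the exact interval for shares, and 0.5 points for differences in promoter rank. For single promoter ranks it was the exact interval of the rank taken as a share of its list. All 3 genes kept a promoter peak in both libraries under every distance and at a −log10 q of at least 2. At 5, 2 had one in each library, and Gata5 had none. The ranks of single promoter peaks within each list moved with the ranking value in 20 of 24 cases. Their margin is very narrow for lists of this size, so most changes of ranking value exceed it.

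Distal counts of control and Taf4-inactivated libraries were 33 and 32 with 50 kb flanks (difference 1), 102 and 95 with 200 kb flanks, 7 and 20 at a −log10 q of at least 5 (difference -13, turned), and 36 and 38 among the 40000 peaks of highest −log10 p (difference -2, turned), a setting chosen after seeing the data. The difference was 1 at a −log10 q of at least 2 and 2 without start sites of other genes. Shares without a partner were 65.5% and 62.3% when 50% of both peaks had to overlap, and 0% and 20.0% for peaks at or above a −log10 q of 5, looked for among all peaks (difference 20.0 points, turned, over 7 and 20 peaks). Among the top 40000 the difference was 2.92 points (turned).

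The promoter rank difference of Gata4 was -19.5 points by −log10 p, -77.9 by width, -19.3 among start site peaks and -19.3 by width-weighted fold. The last averages over all Gata4 promoter peaks, 2 in control and 3 after inactivation, and the others compare different start sites. At the main start site in both libraries, a comparison added after seeing the data, it was -19.4 by fold, -13.7 by −log10 p, -3.57 by width and -25.6 among start site peaks. That of Gata5 was 9.23 by −log10 p, 0.907 by width and 18.2 among start site peaks. That of Gata6 was -8.71 by −log10 p, 9.53 by width (turned) and -13.0 among start site peaks.

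GATA words in 200 bp were found in 24.2% and 28.6% of all peaks away from start sites, and in 500 bp in 49.5% and 54.7% of them and in 51.7% and 67.9% of the distal peaks of the 3 genes. The reversed pattern gave 26.4% and 28.1% over all, and 20.7% and 17.0% for the 3 genes. The wider and narrower windows and the stricter q thresholds change the number of bases or peaks searched by construction. For the other changes the cause was not tested.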
